A study of Mus musculus with 2 samples.

Results

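Inhba/Fst/Inhbb-rich bins are small squares of a section of a young mouse ovary in which transcripts of Inhba, Fst and Inhbb made up the largest share of all counts. The 21403 beads with counts in the young section were sorted by position into squares of 70 position units a side, which is 5.58 times the median distance between neighbouring beads, and a square was kept if it held at least 500 counts. Members were chosen by that share: kept bins were ranked on it and the top 10% taken, which gave 131 of 1306 kept young bins and of 2190 kept bins in both sections. The working name of this set was granulosa bins of large follicles. A bin is a patch of tissue that can hold several cell types, so the set is called here by its genes or as the member bins.

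The young section came from the ovary of a C57BL6/J female mouse of 2 months and the old section, used once below, from a C57BL6/J female of about 14 months. Per the labels, whole ovaries were frozen and cut sagittally, planes with several oocytes were chosen, and no treatment or transgene is named. Slide-seq, the assay used, captures polyadenylated RNA on barcoded beads whose positions on the array are known. There was 1 library for each age, and bins of 1 section share an animal and a library and are not replicates, so no test was made. In bins of mixed tissue, fewer cells of a type and less RNA per cell cannot be told apart. Intervals below are 95% intervals that cover counting error only.

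Inhba and Inhbb encode the beta A and beta B subunits of activins, secreted ligands of the TGF-beta family. Paired with the alpha subunit from Inha, the same subunits form inhibins, which restrain release of follicle-stimulating hormone from the pituitary. Fst encodes follistatin, which binds activins and keeps them from their receptors. Granulosa cells, the layers that surround the oocyte, are the main ovarian source of all 4, and in large follicles they also carry aromatase, which turns androgens supplied by the surrounding theca cells into oestrogens.

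The member bins were deeper than the rest. They held a median of 5017 counts each (lowest 507, highest 10771), against 3034 in the other 1175 kept bins (502 to 29132), and 314 against 198 counts per bead. Mitochondrial genes took 1.51% of member counts and 1.81% of the others' counts, and ribosomal protein genes 1.51% and 2.10%. At an equal depth of 500 counts a member bin held a median of 406 genes and another bin 417. The part of depth in the results below was not tested, apart from the ranking at equal depth described in the closing section.

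The 3 ranking genes took 2.10% of counts in the member bins and 0.0676% in the others. Their levels are given as a description of what the ranking chose. As CPM, counts per 1000000 counts of a set of bins, Inhba (chr13:16004256-16031609, GRCm38) had 12680 in member bins and 239 in the others, Fst (chr13:114452262-114458989) 4814 and 352, and Inhbb (chr1:119415463-119422248) 3512 and 85.3. Across member bins Inhba ran from 1033 through a median of 11825 to 22256 CPM, against 0, 0 and 3473 CPM in the other bins, so the ranges overlapped only in their low and high ends. Fst had a count in 97.0% of member bins and 40.2% of other bins, and Inhbb in 87.0% and 21.7%. At the edge of the set, the last bin taken had 7 ranking counts of 1571 (0.446%) and the first left out had 4 of 925 (0.432%). Of the members, 17 rested on fewer than 10 ranking counts.

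To see how far the ranking repeats in beads it did not use, the beads were split into 2 sets. Beads at even and at odd places in sorted barcode order went to different sets. The 1211 bins with at least 250 counts in each set were ranked by each. Of the 121 top bins by each set, 104 (86.0%) were the same. In the beads that took no part in the ranking, the ratio of top bins over other bins was 44.7 and 46.4 for Inhba, 12.3 and 13.7 for Fst, and 35.1 and 46.3 for Inhbb. Both sets come from 1 section and 1 library.

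The member bins were not scattered. Taking bins that touch at a side or corner as adjoining, 126 of 131 (96.2%) lay in 3 groups of 75, 38 and 13 bins. Group 1 spanned 14 bins by 9 and group 2 spanned 9 by 6. Their bins were deep, with medians of 5787 counts in group 1 and 4854 in group 2. Group 3 was a thin chain with 12 of its 13 bins at the border of the kept area and a median of 1104 counts, and the ranking genes took 0.627% of its counts, against 2.02% in group 1 and 2.47% in group 2. The 5 members outside these groups all lay at the border too. The closing section gives the ratio of the granulosa gene list without group 3 and these 5, and no other list ratio without them.

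**Figure D1:**
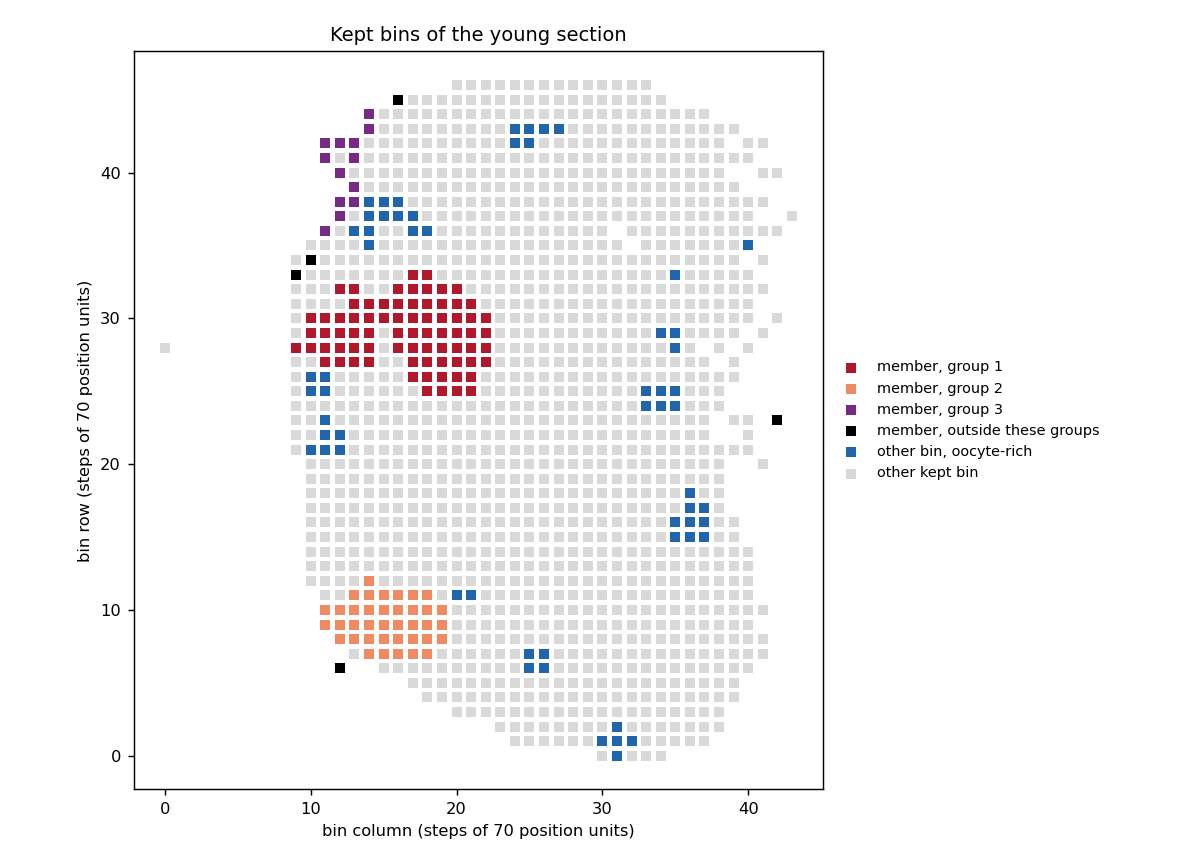
Positions of the 1306 kept bins of the young section, in bin steps of 70 position units on both axes; member bins of groups 1, 2 and 3, the 5 members outside them, the 59 oocyte-rich bins and the remaining bins each have a colour. The members form 2 compact patches of 75 and 38 bins and a chain of 13 bins along the border, and no oocyte-rich bin is a member.

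The working name was set against genes that mark granulosa cells. Of 14 such genes, 13 had enough counts to compare (at least 20 counts and 10 CPM on 1 side), 9 were at least 1.5-fold higher in member bins than in the other bins and 2 were at least 1.5-fold lower. Over all 10520 genes compared, outside the 3 ranking genes, 1140 (10.8%) were at least 1.5-fold higher and 2755 (26.2%) at least 1.5-fold lower, and the median ratio was 0.905. Because the ranking chose the bins, this contrast describes them and is no independent evidence of what they are. Summed, the list had 24154 CPM in member bins and 5120 CPM in the others, a ratio of 4.72 (4.62 to 4.81). Inha (chr1:75507077-75510366), the inhibin alpha subunit, had 5786 and 801 CPM, a ratio of 7.22 (6.90 to 7.56), and a count in 99.2% of member bins. Nr5a2, a nuclear receptor needed for ovulation, had 1204 and 180 CPM (6.70-fold), and Gja1, the gap junction protein connexin 43, had 13009 and 2300 CPM (5.66-fold). The transcription factors Gata4 and Foxl2, outside the naming rule and shown because they define the lineage, were 2.69 and 2.45-fold higher, and the receptor for follicle-stimulating hormone, Fshr, was 3.82-fold higher on only 20 counts in member bins and 35 in the others.

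Not every granulosa gene went along. Slc18a2, a vesicular monoamine transporter, had 15.1 CPM in member bins and 225 CPM in the others, a ratio of 0.0669 (0.0320 to 0.124). Wt1, a transcription factor known from small follicles, had 7.53 and 59.1 CPM, a ratio of 0.127 (0.0410 to 0.301). Amh, the anti-Müllerian hormone of small growing follicles, had 0 counts in member bins (0 to 5.56 CPM) and 15 counts in the others. It was hardly measured anywhere in the section. Its receptor gene Amhr2 had 116 and 119 CPM. Amhr2 and Nr5a1 (1.18-fold) were the genes compared that did not reach 1.5-fold either way.

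Genes of oestrogen synthesis and of the large follicle were among the 16 highest ratios. Genes of other roles, given further below, ranked between them. Cyp19a1 (chr9:54165937-54268164), which encodes aromatase, had the highest ratio under the naming rule, with 576 CPM in member bins and 10.2 CPM in the others, a ratio of 56.7 (41.5 to 79.0). By bin it ran from 0 through a median of 325 to 2114 CPM in members and from 0 through 0 to 866 CPM in the others. Only 3.32% of other bins held a Cyp19a1 count, against 70.2% of member bins. Hsd17b1, which converts oestrone to oestradiol, had 836 and 81.0 CPM, a ratio of 10.3 (9.02 to 11.8), and a count in 86.3% of member bins. Nppc, the precursor of the C-type natriuretic peptide that granulosa cells make to hold the oocyte in meiotic arrest, had 494 and 21.7 CPM, a ratio of 22.8 (18.1 to 28.9). Prkar2b, a regulatory subunit of protein kinase A, the enzyme through which follicle-stimulating hormone acts, had 3000 and 268 CPM (11.2-fold), and Nap1l5, a nucleosome assembly protein, 1153 and 81.9 CPM (14.1-fold).

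Of the 15 genes listed for the antral follicle and oestrogen synthesis, 14 were compared, 9 were at least 1.5-fold higher in member bins and 1 was lower. The exception was the oestrogen receptor gene Esr1, at 25.6 and 54.2 CPM, a gene that theca and stroma also express. Igf1, which in the mouse ovary marks growing follicles, was not higher in member bins, at 163 and 207 CPM. The list summed to 8846 CPM in member bins and 2391 CPM in the others (3.70-fold).

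Other genes among the 16 highest ratios had roles outside steroid synthesis. Comp, a matrix protein of cartilage, had 130 and 2.93 CPM (44.2-fold, 24.5 to 86.3), and Epha5, an ephrin receptor, 93.4 and 2.26 CPM (41.4-fold, 21.1 to 90.6). The anion exchanger gene Slc26a7 had 786 and 28.0 CPM (28.1-fold), and Masp1, a serine protease of the lectin complement pathway, 342 and 12.4 CPM (27.6-fold). Further genes of the set were Grem1 (37.4-fold, described below), Mro (17.3-fold), the homeobox gene Rhox8 (14.1-fold), the atypical cadherin gene Fat1 (11.2-fold), Pclo (10.8-fold on 34 and 21 counts) and Srbd1 (9.83-fold). All 16 have a lower bound of at least 6.10-fold from counting error.

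**Figure D2:**
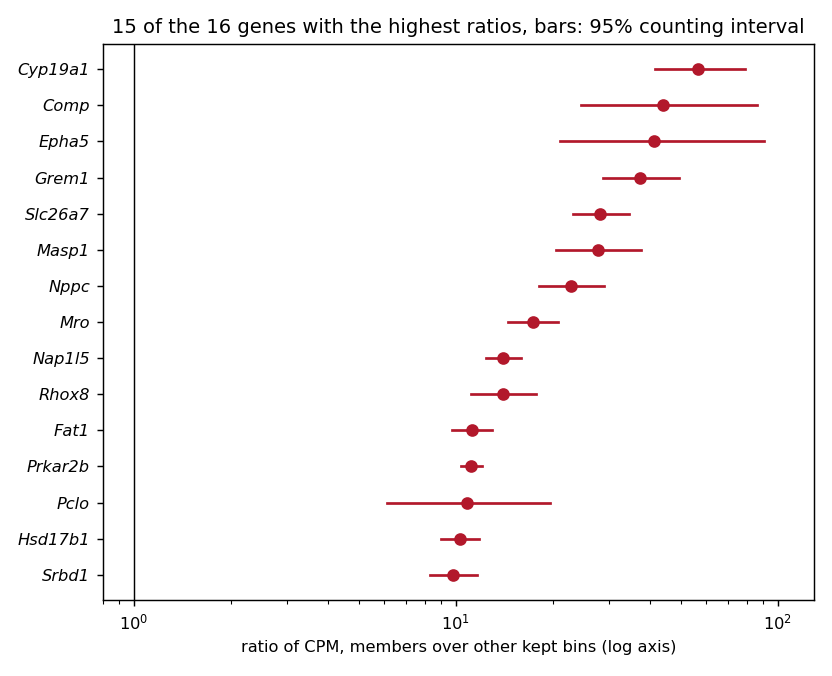
Ratio of CPM in member bins over other kept bins, on a log axis, for 15 of the 16 top genes under the naming rule; points are ratios and bars 95% counting intervals. Cyp19a1 leads at 56.7, and the bar of Epha5, on 62 and 10 counts, runs from 21.1 to 90.6.

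Around the activin subunits, other genes of the TGF-beta family were higher or lower within each role. Over all genes compared, 10.8% were at least 1.5-fold higher and 26.2% at least 1.5-fold lower. A list count near these shares, here or in the lists that follow, is no mark of that list. Of 14 ligand genes in the table, 9 were compared, 2 were higher and 6 lower. The higher ones were Inha and Bmp3, which had 115 and 31.1 CPM (3.68-fold, 2.74 to 4.90). Bmp2 did not reach 1.5-fold, at 51.2 and 37.7 CPM. The lower ones were Gdf9 (0.131), Bmp15 (0.0245) and Bmp6 (0.175), which oocytes make, and Tgfb2 (0.0506), Tgfb3 (0.430) and Tgfb1 (0.514 on 4 counts in member bins). Without Inha, the list's ratio was 0.381 in place of 4.27.

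Among the receptors, 11 of 14 were compared, 3 were higher and 2 lower. Bmpr2, the type II receptor for bone morphogenetic proteins and for oocyte-made GDF9, had 1047 and 237 CPM (4.41-fold). Bmpr1b, its type I partner, had 164 and 43.1 CPM (3.81-fold, 2.98 to 4.85), and Tgfbr1, the type I receptor that GDF9 uses, 341 and 110 CPM (3.09-fold, 2.63 to 3.63). The activin type II receptor genes Acvr2a and Acvr2b were counted sparsely, with 9 and 13 counts in member bins, and their ratios of 1.20 (0.520 to 2.47) and 1.31 (0.666 to 2.41) have intervals that include 1. Bmpr1a was level at 440 and 411 CPM. Tgfbr2 had 3 counts in member bins and a ratio of 0.254 (0.0512 to 0.769), and Acvrl1, a receptor of blood vessels, 0.495.

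Among the antagonists besides Fst, Grem1, which encodes gremlin 1 and binds bone morphogenetic proteins, had 557 and 14.9 CPM, a ratio of 37.4 (28.7 to 49.4). Of 12 antagonists 7 were compared, 2 were higher, and the 3 lower ones were Fstl1 (0.360), Nbl1 (0.214) and Bambi (0.439). Downstream, all 12 mediators and targets were compared, with 3 higher and 3 lower. The 3 lower are close to the 26.2% found lower over all genes compared. The higher ones were Id3 (347 and 113 CPM, 3.06-fold), Id1 (102 and 46.5 CPM, 2.20-fold) and Id2 (119 and 70.2 CPM, 1.70-fold), which are induced by bone morphogenetic protein signals. The lower ones were Ski (0.472), Smad1 (0.405) and Id4 (0.252 on 2 counts in member bins), and Smad2, Smad3 and Smad5 were between 0.867 and 1.16.

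Other signalling lists differed in direction. Of 17 Wnt pathway genes with counts, 12 were compared, 10 were lower in member bins and 1 was higher, the receptor gene Fzd4 (2.74-fold). Sfrp4 had 99.4 and 1453 CPM, a ratio of 0.0684, Sfrp2 was at 0.0357 on 1 count in member bins, and Ctnnb1, which encodes beta-catenin, was near level at 1299 and 1196 CPM. Sfrp4 is also in the luteal list below. Both hedgehog ligand genes that granulosa cells use to signal to theca were higher, Ihh at 164 and 42.4 CPM (3.87-fold, 3.03 to 4.93) and Dhh at 58.8 and 15.4 CPM (3.83-fold, 2.51 to 5.76). Of 10 Notch pathway genes 7 were compared and 4 were lower, among them Jag1 (0.164), while Hey2 had 66.3 and 8.35 CPM (7.94-fold, 5.01 to 12.6). In the IGF system, 3 of 11 compared were higher and 5 lower: Irs1, the insulin receptor substrate, had 232 and 64.1 CPM (3.62-fold), Igfbp2 was 2.34-fold higher, and Igfbp5 was lower at 42.2 and 155 CPM.

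Steroid synthesis was uneven. Of 7 genes that lead from cholesterol to progesterone 1 was higher and 2 were lower in member bins. Hsd3b1, 3-beta-hydroxysteroid dehydrogenase, had 19638 and 10545 CPM (1.86-fold), with the caution that near-identical copies of this gene exist and reads may be divided among them. Cyp11a1, the side-chain cleavage enzyme, had 2292 and 4404 CPM (0.520-fold), and Star, which carries cholesterol into mitochondria, 69.3 and 196 CPM (0.353-fold). Of 17 genes of cholesterol synthesis and uptake 16 were compared, 8 were higher and 1 lower. Mvd, which makes isopentenyl diphosphate, was 4.01-fold higher on 18 and 30 counts, and Msmo1, the most abundant of the list in member bins, had 341 and 182 CPM (1.88-fold). Hmgcs1, in the same pathway, was at 0.779.

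Matrix and junction genes were mixed as well. Of 17 basement membrane genes 2 were higher and 8 lower, with Lama4 the highest at 140 and 50.3 CPM (2.78-fold). Of 13 follicle matrix genes compared 2 were higher and 9 lower: the proteoglycan gene Vcan had 431 and 139 CPM (3.10-fold) and the protease gene Adamts1, which cleaves versican, 51.2 and 19.6 CPM (2.61-fold). Among connexins and cadherins, Gja1 and Cdh2 (3.42-fold) were higher and the 4 others compared were lower, among them Gja4, the connexin of the oocyte, at 0.194. This list summed to a ratio of 5.32, which was 0.758 without Gja1. Of 12 genes tied to atresia and cell death 2 were higher, Foxo1 at 1258 and 368 CPM (3.41-fold) and Bnip3 at 97.9 and 41.3 CPM (2.37-fold), and 6 were lower, among them Ghr (0.131) and Cald1 (0.342).

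The genes lowest in member bins were largely those of oocytes. By the naming rule the 12 lowest were Bcl2l10, Onecut2, Tcl1 and Trim75, with 0 counts in member bins, and Nlrp4f, Ftdc2, Rhpn2, Bmp15, Oog4, Mrc1, Btg4 and Eif4e1b. Of these, Onecut2 is in the luteal list and Mrc1 in the macrophage list described below. Set against a floor of 3 counts over all member bins, Onecut2 was at least 21.9-fold lower, Bcl2l10 at least 15.5-fold, Tcl1 at least 14.98-fold and Trim75 at least 11.5-fold. Btg4, a regulator of maternal RNA decay, had 11 counts in member bins and 2424 in the others (16.6 and 547 CPM), and Bmp15 4 and 1088. All 21 oocyte genes compared of 22 were lower, and the list summed to 252 CPM in member bins and 3737 CPM in the others, a ratio of 0.0673 (0.0575 to 0.0784).

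A bin was called oocyte-rich if the oocyte list took 1% or more of its counts and reached 10 counts. There were 59 such bins (4.52% of kept bins), in 12 groups, and 0 of them were members. Of the 12 groups, 3 lay 1 step from a large member group. Of member bins 14.5% lay within 2 steps of an oocyte-rich bin, against 33.7% of other bins. The median distance to an oocyte-rich bin was the same, 4 steps for members and 4 for the others.

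Markers of other cell types were mostly lower in member bins, and none of these lists was absent. Of 13 macrophage genes compared all 13 were lower, and the list had 131 CPM in member bins and 1105 CPM in the others, a ratio of 0.119 (0.0948 to 0.147), with Mrc1 at 1 count in member bins and 225 counts in the others. Of 8 stromal fibroblast genes all 8 were lower (970 and 2135 CPM), of 10 smooth muscle genes 9 were lower (1178 and 2171 CPM), and of 8 blood endothelial genes 4 were lower (184 and 298 CPM). Of 9 theca genes compared 6 were lower and 2 higher, and the list had 4097 and 7123 CPM, a ratio of 0.575 (0.553 to 0.598), which was 0.931 within the quadrant that holds most members. The theca enzyme gene Cyp17a1 had 152 and 128 CPM, Aldh1a1, the most abundant of the list, 3732 and 6636 CPM, and Enpep was 2.24-fold higher. Of 8 luteal genes 4 were lower and 2 higher, and the list had 1730 and 3394 CPM, a ratio of 0.510 (0.480 to 0.541), or 0.840 without Sfrp4, which the Wnt list also holds. The luteal enzyme gene Akr1c18 had 33.2 and 422 CPM, whereas the receptors Lhcgr, for luteinising hormone, and Prlr, for prolactin, were 2.62 and 1.76-fold higher in member bins. Both receptors are made by granulosa cells of large follicles as well.

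**Figure D3:**
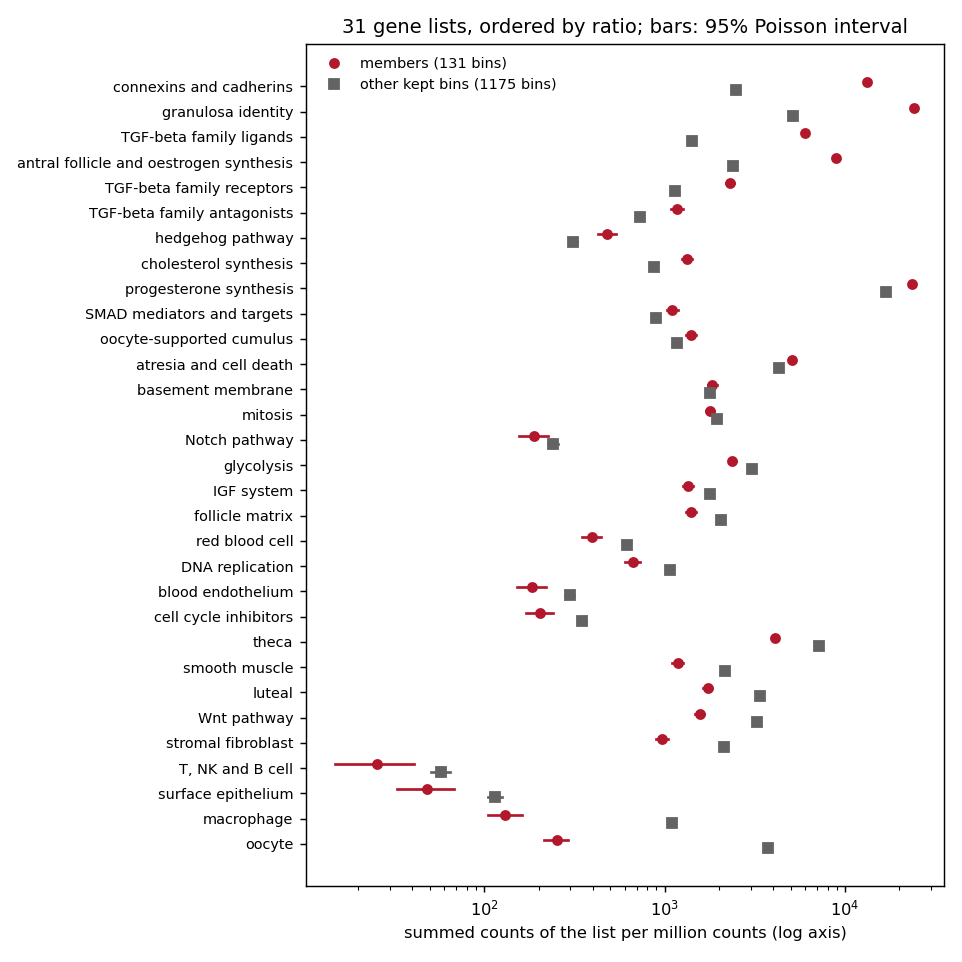
Summed CPM of 31 gene lists in member bins (circles) and other kept bins (squares), on a log axis, with 95% Poisson intervals as bars, ordered by ratio. Connexins and cadherins, granulosa identity and TGF-beta ligands lie furthest to the member side, the first and the last of them through 1 gene each (Gja1 and Inha), and the oocyte list (252 and 3737 CPM) and macrophage list (131 and 1105 CPM) furthest to the other side.

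Cell cycle genes were not a mark of the set as a whole. Of 22 mitosis genes 2 were higher and 6 lower, and the list had 1784 CPM in member bins and 1947 CPM in the others, a ratio of 0.916 (0.861 to 0.974). This value crossed 1 in several alternatives and is given no direction here. The oocyte-rich bins, all among the others, also count in this list: without them the ratio was 1.28. Of 17 DNA replication genes 10 were lower and 0 higher, with Uhrf1 (0.117) and Ung (0.141) lowest and Mcm2 (0.732) the most abundant; this list too crossed 1, at 1.11, when the top 20% of bins were taken. Of 6 inhibitors of the cell cycle compared 4 were lower, among them Cdkn1a (0.268).

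Levels inside groups 1 and 2 differed between edge and centre. Member bins with members on all 8 sides were called inner (39 bins) and the rest outer (74 bins), with median depths of 5898 and 5094 counts. Of 5821 genes compared between them, 717 (12.3%) were at least 1.5-fold higher in inner bins and 821 (14.1%) at least 1.5-fold lower, with a median ratio of 0.998. The genes named for this layout were chosen after their values were seen. Since membership used the 3 ranking genes, and inner bins are those whose neighbours also passed, the layout of the ranking genes themselves is description.

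Mitosis genes were higher inside. Of 22, 17 had enough counts and 16 were at least 1.5-fold higher in inner bins, and the list had 3010 CPM in inner and 1089 CPM in outer bins, a ratio of 2.76 (2.45 to 3.12). Top2a, which untangles chromosomes, had 378 and 103 CPM (3.68-fold, 2.52 to 5.45), and the proliferation marker Mki67 370 and 127 CPM (2.91-fold, 2.04 to 4.18). Taken from the outer bins inwards, the list had 1128, 2379 and 4821 CPM in group 1 and 977, 3387 and 5812 CPM in group 2, so both groups ran the same way. The innermost layer rests on 3 bins in group 1 and 1 bin in group 2. Of 17 DNA replication genes 5 had enough counts and 4 of them were higher inside (877 and 536 CPM for the list).

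Inhbb was higher inside by more than Inhba. Inhbb had 6545 CPM in inner and 1913 CPM in outer bins, a ratio of 3.42 (3.14 to 3.73), whereas Inhba had 14694 and 12061 CPM (1.22-fold), Fst 6257 and 4152 CPM (1.51-fold) and Inha 6704 and 5441 CPM (1.23-fold). From the outer bins inwards Inhbb had 1708, 5533 and 9829 CPM in group 1 and 2504, 7236 and 9650 CPM in group 2. Serpine2, a protease inhibitor gene of granulosa cells, had 4326 and 2082 CPM (2.08-fold), Ihh 301 and 95.4 CPM (3.16-fold), Vcan 645 and 325 CPM (1.98-fold), Igf1 275 and 105 CPM (2.62-fold) and the cyclin gene Ccnd2 464 and 193 CPM.

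Some other genes had the opposite layout. Lhcgr had 301 CPM in inner and 714 CPM in outer bins, a ratio of 0.421 (0.320 to 0.549), Rhox8 155 and 470 CPM (0.330), Cyp11a1 1303 and 2804 CPM (0.465), Kitl, the ligand for the oocyte's Kit receptor, 155 and 272 CPM (0.570), and Prlr 495 and 761 CPM (0.650). In the same bins Cyp19a1 had 705 and 526 CPM (1.34-fold), Hsd17b1 1045 and 719 CPM (1.45-fold) and Gja1 15059 and 12384 CPM (1.22-fold). Prkar2b (1.00), Nr5a2 (0.982) and Fat1 (1.00) were level. From the outer bins inwards Lhcgr had 745, 372 and 62.6 CPM in group 1 and 626, 250 and 110 CPM in group 2, where the innermost values rest on 1 count each.

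Outer bins also held more of the tissue around the follicle. The theca list had 2176 CPM in inner and 5064 CPM in outer bins (0.430), the smooth muscle list 357 and 1580 CPM (0.226), the stromal fibroblast list 181 and 1304 CPM (0.138) and haemoglobin and red cell genes 21.5 and 609 CPM (0.0353). Myh11, of smooth muscle, had 2 counts in inner and 125 in outer bins, Col1a2 20 and 395, and Cyp17a1 5 and 90. Lhcgr, Cyp11a1 and Prlr are also expressed in theca or luteal cells, and the part of such cells in the layout, that of Rhox8 included, was not tested. Rhox8 had 470 CPM in outer member bins of groups 1 and 2 and 117 CPM in the first ring outside all 3 groups. In the same places Lhcgr had 714 and 564 CPM and Prlr 761 and 557 CPM. Cyp11a1 was higher still outside, at 2804 CPM in outer member bins and 5957 CPM in the ring.

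**Figure D4:**
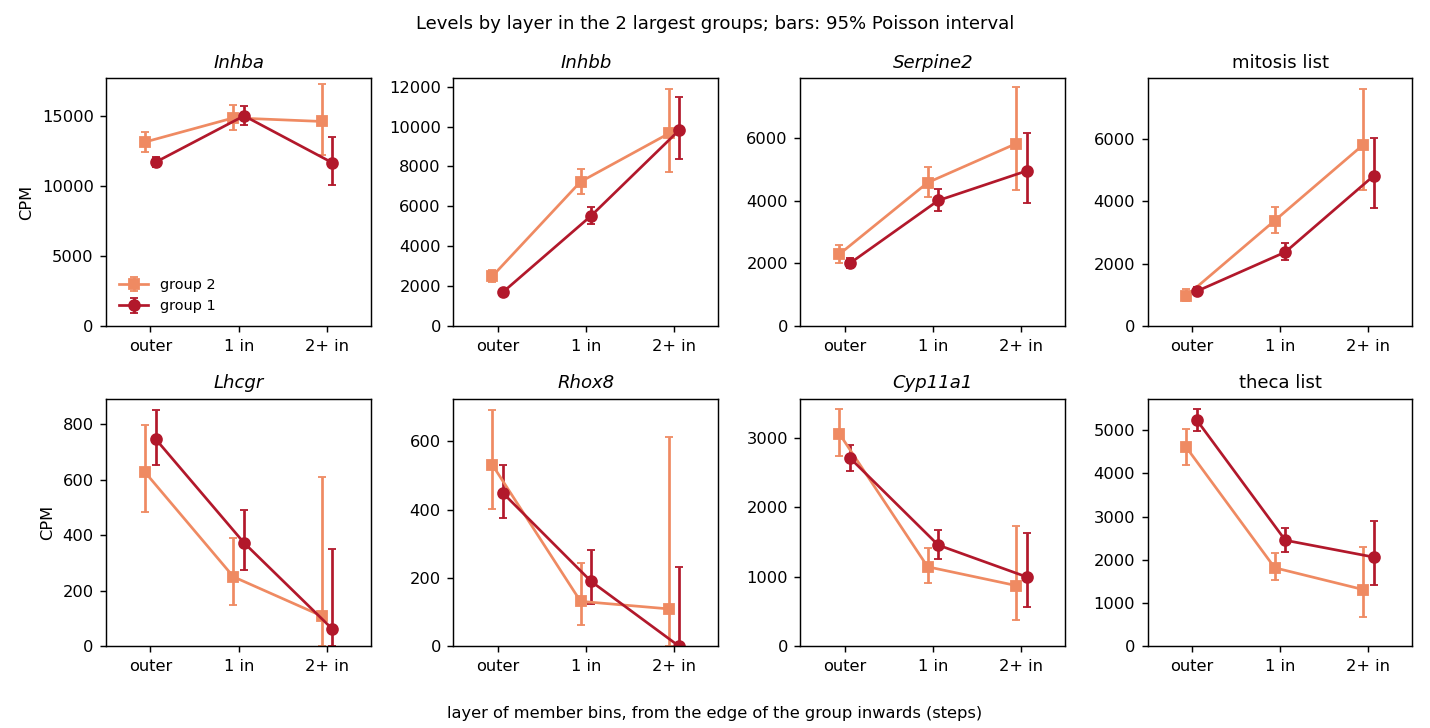
Level in CPM by layer of member bins, from the outer bins through 1 step in to 2 or more steps in, in group 2 and group 1, with 95% Poisson intervals, for Inhba, Inhbb, Serpine2, the mitosis list, Lhcgr, Rhox8, Cyp11a1 and the theca list. In both groups Inhbb, Serpine2 and the mitosis list are higher towards the centre, Lhcgr, Cyp11a1 and the theca list are higher at the edge, and Inhba stays between 11645 and 14986 CPM.

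Few genes differed by 1.5-fold between the 2 large groups. Of 2821 genes with at least 50 counts and 50 CPM, 117 (4.15%) were at least 1.5-fold higher in group 2 than in group 1 and 217 (7.69%) at least 1.5-fold lower. Inhba had 13878 CPM in group 2 and 12652 CPM in group 1, Cyp19a1 651 and 566 CPM, Inha 6044 and 5838 CPM and Hsd17b1 877 and 821 CPM. Group 2 was higher in Inhbb (4731 and 3112 CPM, 1.52-fold), Nppc (656 and 432 CPM, 1.52-fold), Foxl2 (347 and 220 CPM, 1.58-fold), Ihh (242 and 140 CPM, 1.73-fold) and Vcan (604 and 373 CPM, 1.62-fold). Genes at least 1.5-fold lower in group 2 included the oestrogen receptor gene Esr2 (63.0 and 153 CPM, 0.412, 0.203 to 0.766). Acta2, of smooth muscle, was another (78.8 and 189 CPM, 0.418). Lhcgr (452 and 612 CPM, 0.738) and Aldh1a1 (3067 and 3941 CPM, 0.778) were lower by less than 1.5-fold. These genes were named after their values were seen.

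Because 87 members lay in the quadrant of low x and high y and 39 in that of low x and low y, the contrast was repeated within each quadrant, so that no bin served in both. In 7082 genes compared in both, 753 (10.6%) and 1064 (15.0%) were at least 1.5-fold higher in members, with 412 in common, which is 54.7% and 38.7% of each. Lower were 1607 (22.7%) and 1983 (28.0%), with 989 in common, 61.5% and 49.9% of each. The 16 genes named as high and the 12 named as low held past 1.5-fold in both quadrants. They were picked for the most extreme ratios over these same member bins, so this is description and no independent repeat. Cyp19a1 had a ratio of 24.4 (16.1 to 38.4) in the first and 82.3 (34.3 to 258) in the second, and Inha 4.94 and 7.50. The mitosis list lay on opposite sides of 1, at 0.658 (0.606 to 0.714) in the first and 1.39 (1.23 to 1.56) in the second. The theca list was near level in the first, at 4376 CPM in members and 4700 CPM in other bins (0.931, 0.884 to 0.981), and at 0.572 (0.525 to 0.622) in the second. Red blood cell genes were at 1.19 (0.989 to 1.44) in the first.

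Levels were also followed outwards from the member groups. Counting bin steps from the nearest member of the 3 groups, the ranking genes together had 21128 CPM in the members, then 1443, 814 and 554 CPM at 1, 2 and 3 steps, a difference that the choice of members fixes. Cyp19a1 had 579 CPM, then 52.2 and 14.1 CPM and, at 3 steps, 0 counts (0 to 8.82 CPM). Gja1 had 13095 CPM, then 2246, 2290 and 2307 CPM. Lhcgr did not have this pattern: it had 556 CPM in members and 564 CPM at 1 step, then 231 and 239 CPM.

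The ring of 96 bins at 1 step held the highest levels of the theca, smooth muscle and stromal fibroblast lists of the 6 distance classes. Cyp17a1 had 472 CPM there (407 to 544), against 152 CPM in the members and 104 CPM at 2 steps, and the theca list 9132, against 4084 and 4852 CPM. The smooth muscle list had 2946 CPM in the ring, 1159 in the members and 1657 at 2 steps, and the stromal fibroblast list 3048, 957 and 2199 CPM. Col4a1, of the basement membrane, had 253, 112 and 174 CPM, but the basement membrane list was nearly level, at 1935, 1833 and 1848 CPM. The hedgehog targets Gli1 and Ptch1 differed. Gli1 had 2 counts (3.04 CPM) in the members, 9 counts (22.4 CPM) in the ring and 3 counts (7.06 CPM) at 2 steps, whereas Ptch1 had 33.4, 54.7 and 77.7 CPM there and 65.2 CPM beyond 6 steps. The luteal list was highest further out, at 6059 CPM at 3 steps, with 1725 CPM in the members and 2206 CPM beyond 6 steps.

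**Figure D5:**
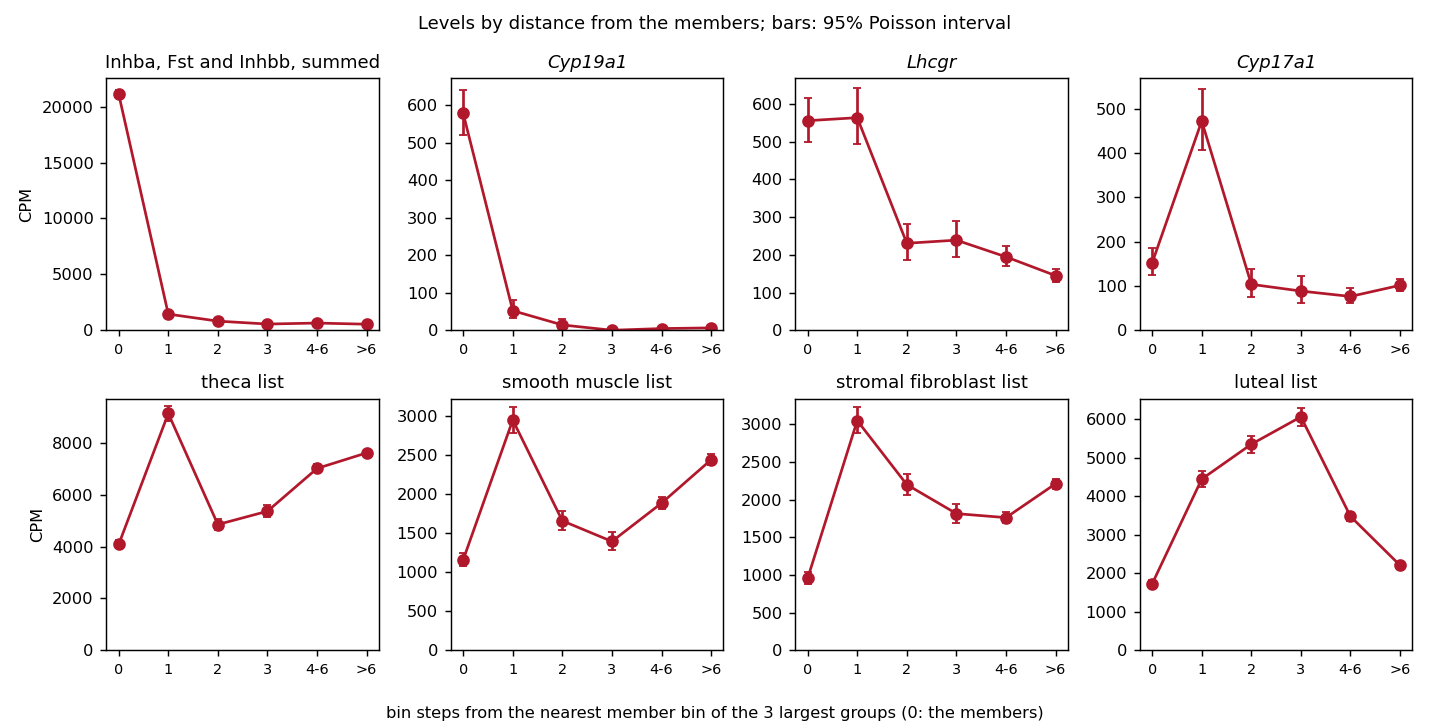
Level in CPM by bin steps from the nearest member of the 3 groups, from the members at 0 to bins more than 6 steps away, with 95% Poisson intervals, for the 3 ranking genes together, Cyp19a1, Lhcgr, Cyp17a1 and 4 gene lists. The ranking genes are highest at 0 by the choice of members, Cyp19a1 has 579 CPM at 0 and 52.2 CPM at 1 step, Cyp17a1 and the theca, smooth muscle and stromal lists are highest at 1 step, and the luteal list is highest at 3 steps.

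The next 131 bins in the ranking differed from the members in the make-up of the ranking counts and in other genes. Ranking counts in the members were 60.4% Inhba, 22.9% Fst and 16.7% Inhbb, and in the next 131 bins 33.4%, 56.4% and 10.2%. This make-up is drawn from the values that the ranking used and is given as description. Members had 14.2-fold more Cyp19a1 (576 and 40.7 CPM), 13.7-fold more Grem1 and 3.63-fold more Inha. The next bins had more Slc18a2 (15.1 CPM in members and 403 CPM in the next bins, a ratio of 0.0374) and more of the potassium channel domain gene Kctd14 (97.9 and 1064 CPM, 0.0920). The mitosis list had 1784 CPM in members and 2668 CPM in the next bins. Of the next bins, 34.4% touched a member and 34.4% lay more than 6 steps from one.

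In the old section the same rule took 88 of 884 kept bins but at far lower shares. The ranking genes took from 0.104% to 0.669% of counts in those bins, with a median of 0.142% resting on 5 counts, and 110 of the 131 young members lay above the highest old bin. The old bins formed 28 groups, the largest of 19 bins. In them Inhba had 235 CPM, against 51.9 CPM in the other old bins, Fst 1104 and 171 CPM, Inha 549 and 247 CPM, and Cyp19a1 1 and 3 counts. With 1 section of each age, age cannot be told apart from the animal, the plane of the section and the follicles it happened to cross.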

How the data were processed

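Slide-seq libraries of 1 young and 1 old mouse ovary section were used. The authors' deposited tables hold counts, whole numbers for each bead and gene, and bead positions stand in a table of their own, per the file headers. The submitters' processing notes name mm10; which aligner was used, and whether a count is a molecule or a read, is not given in these sources. The length unit of the positions is not stated either.

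Beads were binned as described, counts summed by bin, and levels given as CPM. Ratios have exact conditional binomial intervals and levels exact Poisson intervals at 95%, counting error only. A gene was compared with at least 20 counts and 10 CPM on 1 side. For fold values, a count of 0 was given a floor of 3 counts. Distance was counted in bin steps, diagonals included. No test was possible between groups with 1 library per age, and none was made between bins.

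The members, the gene lists and the comparisons were chosen with earlier results of these data known. Named genes were the 16 highest and 12 lowest ratios among genes that reached 50 counts and 50 CPM, leaving out the ranking genes and mitochondrial, ribosomal protein, haemoglobin and clone-named genes, plus the extreme and most abundant members of each list. A few genes that met these rules are not reported here. Of 21091 gene names in the young section, 18061 matched RefSeq symbols of GRCm38. Tested on simulated data for the contrast of members with other bins, 95.99% of 10523 gene intervals contained the ratio that was put in. The simulation drew independent Poisson counts for the pooled members and the pooled others. It had no spread between bins and no ranking, so it checks the interval formula only. Python 3.11.15, numpy 2.4.6, scipy 1.17.1 and matplotlib 3.10.9 were used.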

Additional observations from a re-analysis of the deposited data

How the results depend on the processing

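Of the 22 alternatives, those that changed only the count and CPM minimum bear on the numbers of genes alone. Under the rest, all 28 named genes stayed past 1.5-fold in the same direction, and 26 of 31 lists stayed on one side of 1. The 28 genes were picked for the most extreme ratios in the same section, so their part of this is description. With a minimum of 5 counts and no CPM minimum, the number of genes at least 1.5-fold higher in members was 1916. The number of genes at least 1.5-fold lower in members was 5751 there. With at least 100 counts and 20 CPM they were 697 and 1819. Shares of the genes compared are not given for these settings, so the numbers cannot be set beside 10.8% and 26.2%. How far counting error at few counts adds to them was not tested. As reported, the granulosa identity list ratio was 4.72, the theca list ratio 0.575, the luteal list ratio 0.510 and the mitosis list ratio 0.916. With bins of 50 units granulosa was 4.82 and theca 0.526, and with bins of 100 units the 4 lists were 4.48, 0.664, 0.611 and 0.861. With the top 5% of bins granulosa was 4.95, theca 0.352 and mitosis 1.21. With the top 20%, granulosa was 3.92, luteal 0.439 and mitosis 1.19, and the DNA replication list (1.11) and the surface epithelium list (1.006) turned to the other side of 1. Ranked without Inhba, the 4 lists were 4.55, 0.520, 0.479 and 1.01. Ranked at an equal depth of 500 counts they were 4.56, 0.543, 0.556 and 1.03. With equal weight per bin granulosa was 4.83 and mitosis 1.28. Leaving out the quadrant of high x and high y, these 4 were 4.09, 0.680, 0.551 and 0.798, without that of low x and high y 5.67, 0.443, 0.459 and 1.16, and without that of low x and low y 4.46, 0.601, 0.565 and 0.811. Without the quadrant of high x and low y granulosa was 5.01, luteal 0.460 and mitosis 1.01. Without oocyte-rich bins they were 4.58, 0.518, 0.450 and 1.28. With only the 2 largest groups as members granulosa was 4.83. Ranked on 1 set of beads and measured in the other, luteal was 0.454 and 0.565. The mitosis ratio of inner over outer bins (2.76) was 2.34 in group 1 alone, 3.73 in group 2 alone, 2.31 with the top 20% of bins and 2.39 with bins of 50 units. The causes of these shifts were not tested. The alternative with only the 2 largest groups and those for inner bins were chosen after seeing the data. No paired analysis was possible because each age has 1 library and no result comes from a test. Depth limits genes with few counts in member bins, such as the activin receptors, Tgfbr2 and Amh.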
